A study of Mus musculus with 13 samples.

Results

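Germ-cell deletion of the glucocorticoid receptor (GR, encoded by *Nr3c1*) was compared with Cre-negative floxed controls in female germ cells at E17.5. The comparison holds every library that the labels give as GR conditional knockout (cKO, n = 4 embryos) or as its floxed control (flox, n = 3 embryos), which is 7 of the 13 libraries of the series. Each library is the RNA of germ cells sorted from the ovary pair of 1 embryo. The other 6 libraries, from a constitutive knockout cross (KO, n = 3, and WT, n = 3), entered the same fit and are used only where their effect is set beside that of the conditional cross.

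Embryos of both conditional groups carried 2 floxed *Nr3c1* alleles (Nr3c1tm1.1Jda) and the transgene Tg(Pou5f1-EGFP)2Mnn, whose green fluorescence under the *Pou5f1* (Oct4) promoter was the sorting gate. In both groups the dam had received 125 μg/g tamoxifen at E10.5. For the constitutive cross no tamoxifen is described, and its KO embryos are homozygous for a deletion of *Nr3c1* in the whole body. The cKO embryos further carried the Cre allele Pou5f1tm1.1(cre/Esr1*)Yseg, in which a tamoxifen-dependent Cre recombinase is made where *Pou5f1* is expressed, so Cre with its allele and the loss of GR cannot be told apart in this design. The allele was typed in tail tissue, while the recombination itself takes place in the germ cells that express Cre. Cre deletes exon 3 of *Nr3c1*, and the libraries read the 3′ ends of polyadenylated transcripts, so the count of *Nr3c1* does not test whether the exon was lost.

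GR is a nuclear receptor that stays in the cytoplasm with HSP90 and its cochaperones until a glucocorticoid binds it, then moves to the nucleus and binds palindromic DNA elements, where coregulators of the NCOA and Mediator families join it. In many tissues it induces feedback and metabolic genes, among them *Fkbp5*, *Tsc22d3*, *Per1*, *Sgk1*, *Zbtb16* and the metallothioneins. Female germ cells at this age are oocytes in prophase of the first meiotic division, in which homologous chromosomes pair, are held by the synaptonemal complex and cohesin, and exchange strands. Many oocytes are lost around this stage, through checkpoints that act on DNA damage and retrotransposons.

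The element that GR binds is shown here because it is the sequence through which the receptor is known to act on induced genes. Its form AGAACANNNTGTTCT was found on either strand in 3 of 32851 mouse promoters (0.00913%) of 300 bases, 250 before and 50 after the start site, taken from RefSeq on GRCm38.p6. A looser form, GNACANNNTGTNC, which every match of the full form also meets, was in 156 (0.475%). Of the 30 genes in the glucocorticoid-induced list, 26 had a promoter in the table, and 3 of these held the looser form. The windows around these matches are printed 5′ to 3′ on the plus strand, with the looser form in capitals.
*Sgk1*, chr10:21993694-21993723: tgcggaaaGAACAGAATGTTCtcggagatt
*Mt1*, chr8:94178987-94179016: cactatagGGACATGATGTTCcacacgtca
*Txnip*, chr3:96557777-96557806: cgctaggaGCACACCGTGTCCacgcgcccc
The match of *Sgk1*, a kinase gene, lies 188 bases before a start site inside the gene's interval and belongs to the full form, that of the metallothionein gene *Mt1* lies 94 bases before its start, and that of *Txnip*, an inhibitor of thioredoxin, 172 bases before. A match is only a run of letters and does not show binding.

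*Sgk1* was at 7.3, 0.8, 0.7 and 4.8 CPM (counts scaled to a common library size with the TMM factor) in the 4 cKO embryos and at 0.8, 2.7 and 1.0 CPM in the 3 flox embryos. *Mt1* was at 2.1, 10.2, 2.6 and 8.3 CPM in cKO and 0.0, 7.6 and 7.3 CPM in flox. Both genes were near the limit of detection and their groups overlapped, with log2 fold changes of 1.16 (standard error, SE, 1.88) and 0.22 (SE 1.45). *Txnip* had 0 counts in all 7 libraries, and its interval is shared over its whole length (100%) with another gene, where reads could have been left out of the count. The half-site AGAACA alone was in 19% of all promoters, in 12.9% of those of tested genes, in 12.2% of those of genes with higher levels in cKO at an unadjusted p under 0.05 and in 12.5% of those with lower levels.

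The 7 libraries held 2048706 to 2888881 counted reads and 13460 to 15629 genes with at least 1 count, and reads on mitochondrial genes made up 6.11 to 9.02%. Pearson correlations of log2 CPM were 0.787 to 0.808 between cKO embryos, 0.764 to 0.822 between flox embryos and 0.774 to 0.823 between the groups, so embryos of 1 group were no more alike than embryos of different groups. No principal component held more than 20.4% of the variance, and flox replicate 1 lay at 1 end of the first. Of 14 markers of fetal oocytes, 13 had counts and their summed level was 11342 to 15511 CPM in every embryo. *Sycp3*, a defining oocyte gene, was at 0 counts in all 7 libraries, and its interval too is shared over its whole length with another gene.

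Markers of other cells of the ovary were low. Those of somatic cells summed to 183 to 515 CPM over 25 genes, with the groups overlapping and *Cyp11a1* and *Tcf21* at 0, and *Foxl2*, which marks pregranulosa cells, had 0 to 17.7 CPM. Macrophage markers summed to 13 to 73 CPM, with 7 of 14 at 0 (*Ptprc* and the complement genes *C1qa*, *C1qb* and *C1qc* among them), and endothelial markers to 52 to 112 CPM, with 2 of 12 at 0. Both sums overlapped between the groups. Of 4 tested macrophage genes, 1 did not overlap, beside 4.97% of all tested genes. This was *Lyz2*, at 29.1, 15.2, 23.9 and 27.3 CPM in cKO and 0, 3.55 and 7.76 CPM in flox (exact two-sided permutation p = 0.0286). Its log2 fold change was 2.65 (SE 1.55), with an unadjusted p of 0.104 in edgeR's quasi-likelihood test. In contrast, the summed erythroid markers separated the groups, at 180, 89.4, 176 and 191 CPM in cKO and 1330, 385 and 289 CPM in flox, although 6 of 13 (*Alas2*, *Epor*, *Slc4a1*, *Hba-x*, *Hbb-bh1* and *Hbb-y*) were at 0 everywhere. The intervals of *Tcf21* and *Alas2* are likewise shared over their whole length with another gene, so their 0 counts do not show that the transcripts were absent. In bulk samples, fewer cells of a type and less RNA per cell cannot be told apart.

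The globin genes made up this difference. *Hba-a1*, an adult α-globin, was at 21.5, 23.0, 29.0 and 56.9 CPM in cKO and 393, 55.1 and 73.2 CPM in flox, and *Hbb-bs*, a β-globin, was at 125, 35.5, 111 and 88.7 CPM against 675, 271 and 110 CPM. Flox replicate 1 was the highest for both. Of the 4 erythroid genes tested, 3 (*Hba-a1*, *Hbb-bs* and *Hbb-bt*) had an unadjusted p under 0.05, beside 3.19% of all tested genes. All 4 had a fold change below 0, with a median log2 fold change of −1.83. Without flox replicate 1 the median was −1.02 and 0 of the 4 had an unadjusted p under 0.05. The part of globin RNA in the results that follow was not tested, and where leaving out flox replicate 1 changed the number of genes at an unadjusted p under 0.05 given for a list, or turned the sign of its median, the value without it follows.

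Across all genes, no difference between cKO and flox germ cells passed the threshold. Of 13086 genes tested with edgeR's quasi-likelihood test, 0 (0%) had a Benjamini-Hochberg adjusted p ≤0.05, and the smallest adjusted p was 0.9998. An unadjusted p under 0.05 was found for 418 genes (3.19%), 173 (1.32%) of them with higher and 245 (1.87%) with lower levels in cKO. limma's voom called 0 genes, with 533 at an unadjusted p under 0.05, and DESeq2 called 5 of 21551 genes, all lower in cKO (*Gm43049*, *C8a*, *Gm27166*, *Gm6682* and *Ephb3*). Of these 5, the first 4 had counts in a single embryo and *Ephb3* had 0 counts in the 4 cKO embryos.

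The spread between embryos set what could be seen. Across genes, a typical SE of the log2 fold change was 0.797 (median), at a common biological coefficient of variation of 0.841. The 95% interval stayed inside a 2-fold difference, log2 values from −1 to 1, for 1954 genes (14.9%). Of these, 1829 belonged to the 3272 genes with a mean level of 73.6 CPM or more, and below 25.2 CPM the interval was this narrow for 0 genes. All cKO embryos lay above all flox embryos for 285 genes (2.18%) and below for 365 (2.79%), and 650 (4.97%) did not overlap in either direction.

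**Figure D1:**
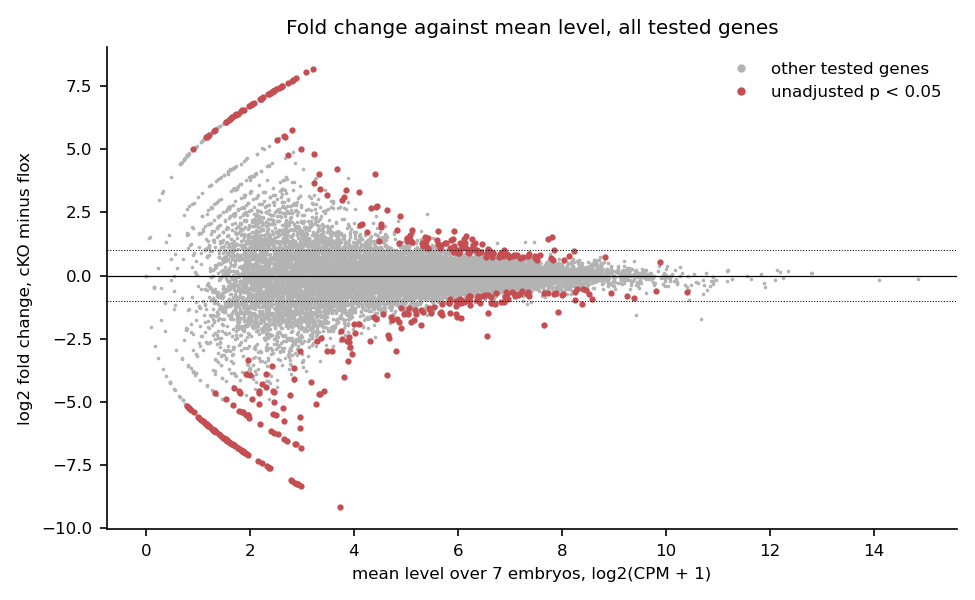
Log2 fold change (cKO minus flox, edgeR) against mean level over the 7 embryos as log2(CPM + 1), with 1 point per tested gene and the 418 genes at an unadjusted p under 0.05 in red. Dotted lines mark a 2-fold difference. Fold changes spread widely at low levels and narrow towards high levels, and red points lie on both sides of 0.

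*Nr3c1* (ENSMUSG00000024431.15, mm10 chromosome 18, 39410545 to 39519421, minus strand) was counted in every embryo, at 59.2, 48.4, 30.1 and 72.8 CPM in cKO and 46.5, 46.7 and 104 CPM in flox. The groups overlapped, and 1 flox embryo stood above the rest. Its log2 fold change of −0.32 (95% interval −1.35 to 0.71, exact two-sided permutation p = 0.6) became 0.19 without flox replicate 3. With 4 embryos against 3 there are 35 divisions, and no exact p can be under 0.0286.

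Of 30 glucocorticoid-induced genes, 28 had counts and 23 were tested. None had an unadjusted p under 0.05 in edgeR's test, against 3.19% of all tested genes, 13 were above 0 and 10 below, and their median log2 fold change was 0.14 beside −0.01 over all genes. Without 1 cKO or flox library this median ran from −0.07 to 0.17. *Fkbp5*, a cochaperone that feeds back on GR, was at 98.0, 69.1, 76.4 and 75.2 CPM in cKO and 113, 58.6 and 74.2 CPM in flox (log2 fold change −0.04, SE 0.39, 95% interval −0.85 to 0.77). *Tsc22d3*, which encodes the anti-inflammatory protein GILZ, was the highest member at 73.4, 264, 147 and 172 CPM in cKO and 115, 206 and 86.8 CPM in flox. *Nfkbia*, the inhibitor of NF-κB, was at 121, 93.7, 169 and 152 CPM against 185, 82.2 and 97.0 CPM. The groups overlapped for each of these 3 genes, and for *Fkbp5* and *Nfkbia* every cKO value lay within the flox range.

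Intervals within a 2-fold difference were reached for 3 members, *Fkbp5*, *Nfkbia* and *Glul* (glutamine synthetase), and not for the other members, *Tsc22d3* among them (−0.57 to 1.11). The lowest p in the list belonged to the clock gene *Per2*, at 0, 0, 1.10 and 1.73 CPM in cKO and 29.2, 11.6 and 0 CPM in flox, where 1 flox embryo was also at 0 (unadjusted p = 0.0653, exact permutation p = 0.171). *Dusp1*, a MAP kinase phosphatase, was the only 1 of the 23 tested members whose groups did not overlap, beside 4.97% of all tested genes, at 3.8 to 13.9 CPM in cKO and 1.3 to 3.4 CPM in flox (unadjusted p = 0.311 in edgeR's test). The summed level of the list was 580 to 790 CPM in cKO and 574 to 766 CPM in flox, which overlapped almost fully.

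**Figure D2:**
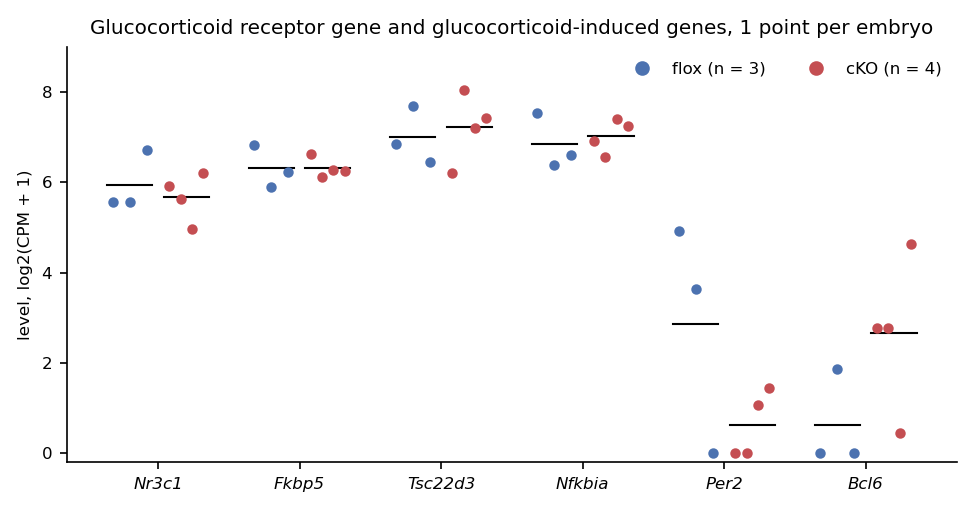
Level of *Nr3c1* and 5 glucocorticoid-induced genes as log2(CPM + 1), with 1 point per embryo, flox in blue and cKO in red, and a line at the mean of each group. The groups overlap for all 6 genes, and *Per2* and *Bcl6* include embryos with 0 counts.

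The machinery that holds and assists the receptor was well expressed. All 25 genes of GR chaperones and coregulators were tested, with a median level of 161 CPM, and 4 (16%, beside 3.19% of all tested genes) had an unadjusted p under 0.05, 1 higher and 3 lower. *Med1*, the Mediator subunit that contacts nuclear receptors, was at 151, 180, 220 and 232 CPM in cKO and 96.8, 132 and 117 CPM in flox, with every cKO embryo above every flox embryo (log2 fold change 0.76, SE 0.29, exact permutation p = 0.0571). *Stip1*, which links HSP70 to HSP90, was at 58.5, 93.7, 112 and 149 CPM in cKO and 134, 203 and 198 CPM in flox, a difference of −0.79 (SE 0.34), and 1 cKO embryo was above the lowest flox embryo. The HSP40 gene *Dnajb1* (−0.73, SE 0.32) and the coactivator gene *Ncoa2* (−0.67, SE 0.31) made up the other 2. Without flox replicate 1 the count was 0 higher and 4 lower. It was 1 higher and 0 lower without cKO replicate 1, and 1 higher and 1 lower without cKO replicate 2. Leaving out a cKO embryo also changed this number in other lists, and only some of these values are given.

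The HSP90 genes themselves were close between the groups. *Hsp90aa1* was at 6432, 6892, 8319 and 7308 CPM in cKO and 5415, 7595 and 7482 CPM in flox, with a 95% interval of −0.34 to 0.51 on the log2 scale, and *Hsp90ab1* was at 4610 to 5115 CPM in cKO and 4870 to 5291 CPM in flox (−0.54 to 0.34). Of 15 genes of steroid receptors and glucocorticoid-converting enzymes, *Nr3c1* among them, 9 were tested and 0 had an unadjusted p under 0.05. Both forms of 11β-hydroxysteroid dehydrogenase, *Hsd11b1* and *Hsd11b2*, which interconvert active and inactive glucocorticoids, had 0 counts in all 7 libraries, but the interval of *Hsd11b1* is shared over its whole length with another gene. The membrane progesterone receptor component *Pgrmc2* was the highest of the list at 176 to 251 CPM in cKO and 128 to 336 CPM in flox (log2 fold change 0.01, SE 0.34).

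The 8 genes with the lowest p in each direction fell into genes at moderate levels with modest differences and genes counted in few embryos. Among the first, *Rprd1a* (chromosome 18, 24484960 to 24530204), which encodes a protein that binds the tail of RNA polymerase II, was at 93.5, 85.9, 73.8 and 97.0 CPM in cKO and 32.1, 55.1 and 28.1 CPM in flox. Every cKO embryo was above every flox embryo (log2 fold change 1.19, SE 0.39, unadjusted p = 0.00586, exact permutation p = 0.0286). *Grip1* (chromosome 10, 119453830 to 120087261), a PDZ-domain scaffold of glutamate receptors and not the coactivator of the same nickname, was at 337, 341, 281 and 216 CPM against 171, 155 and 110 CPM (1.02, SE 0.34). The forkhead gene *Foxn2* was at 77.1 to 141 CPM in cKO and 18.4 to 79.5 CPM in flox, which overlapped.

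Larger differences at lower levels were seen for *Wdr19*, a component of intraflagellar transport, at 61.3, 39.0, 18.7 and 11.7 CPM against 3.80, 6.66 and 3.88 CPM (log2 fold change 2.76, SE 0.80), and for *Dclre1b* (Apollo, a telomere nuclease) at 20.4, 57.0, 24.6 and 17.9 CPM against 4.23, 5.33 and 4.36 CPM (2.68, SE 0.88). Of the *Dclre1b* interval, 60.1% is shared with other genes. *Nxpe4* was at 5.18 to 71.97 CPM in cKO and 1.27 to 3.88 CPM in flox. In all 3 the groups did not overlap, and the cKO embryos themselves differed several-fold. *Tmem181c-ps*, a pseudogene with 10 to 63 counts in cKO and 0 in the flox libraries, was at least 10.7-fold higher in cKO against a floor of 3 counts per library, while in the constitutive cross its fold change had the opposite sign (−5.12).

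On the lower side, *Pik3ip1*, an inhibitor of PI3-kinase, was at 6.23, 28.5, 19.8 and 13.1 CPM in cKO and 74.8, 49.3 and 74.7 CPM in flox (log2 fold change −1.97, SE 0.56, exact permutation p = 0.0571). *Rrp36*, which acts in ribosomal RNA processing, was at 11.4, 0.78, 11.4 and 9.66 CPM against 46.1, 34.7 and 57.7 CPM (−2.46, SE 0.75). *Rnf214*, a RING finger gene, was at 27.0, 35.5, 31.2 and 36.6 CPM against 78.6, 102 and 127 CPM (−1.65, SE 0.41, exact permutation p = 0.0286). The groups were apart for each of these 3 genes, and edgeR's adjusted p was 0.9998 for each. Other genes of this group rest on few reads, since *Ephb3*, *Gm49654* and *Gm6682* had 0 counts in all cKO embryos, *Gm6682* had counts in flox replicate 2 only, and *Vmn2r13* reached 120 counts in a single flox embryo.

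**Figure D3:**
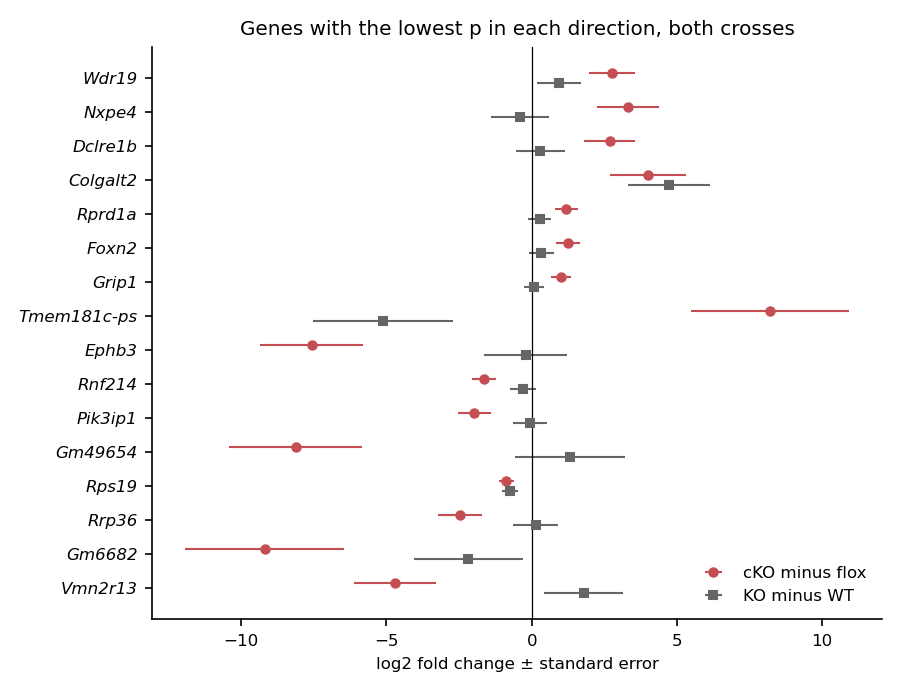
Log2 fold change with its standard error for the 8 genes with the lowest p in each direction, for cKO minus flox (red) and KO minus WT (grey). The red values were what chose the genes, and of the grey values only those of *Colgalt2*, *Rps19* and *Tmem181c-ps* have an unadjusted p under 0.05, the last with the opposite sign.

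The lists of the meiotic chromosome axis and of cohesin gave 0 genes at an unadjusted p under 0.05 in edgeR's test. Of 12 genes of the synaptonemal complex and its axis, 10 were tested, 0 had an unadjusted p under 0.05, and 5 had an interval within a 2-fold difference. *Sycp1*, the transverse filament, was at 5130, 6698, 3907 and 3876 CPM in cKO and 3048, 5346 and 4945 CPM in flox. The median log2 fold change of the list was −0.15, with 3 above 0 and 7 below, and without flox replicate 1 it was −0.20 with all 10 below 0. Among 17 tested cohesin genes the count at an unadjusted p under 0.05 was also 0, and the meiosis-specific subunit *Smc1b* was at 3087 to 4617 CPM in cKO and 2794 to 4519 CPM in flox. All cKO embryos lay below all flox embryos for 2 of the 17 cohesin genes, beside 2.79% of all tested genes, and above for 0. These were *Stag1* and *Rad21*, subunits of mitotic cohesin (exact permutation p = 0.0571 for both). *Stag1* was at 147 to 246 CPM in cKO against 273 to 317 CPM in flox, and *Rad21* at 90.6 to 151 against 154 to 235 CPM.

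Of 39 tested genes of meiotic recombination, 1 had an unadjusted p under 0.05. This was *Mcmdc2*, an MCM-like gene needed for repair of meiotic breaks, at 0, 5.86, 1.84 and 11.7 CPM in cKO and 9.72, 21.8 and 36.4 CPM in flox, with 1 overlapping pair of values. *Prdm9*, the methyltransferase that places meiotic breaks, was at 48.5, 44.9, 31.6 and 16.9 CPM in cKO and 52.8, 96.4 and 70.8 CPM in flox (log2 fold change −1.05, 95% interval −2.15 to 0.05). Its highest cKO embryo and lowest flox embryo were close. The recombinase gene *Dmc1* varied within the groups, at 18.7 to 219 CPM in cKO and 60.4 to 158 CPM in flox. The median of the list was −0.16, and without flox replicate 1 it was −0.24 with 4 genes at an unadjusted p under 0.05, all lower.

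In the list of meiotic telomere attachment, 1 of 10 tested genes, the shelterin gene *Terf2*, had an unadjusted p under 0.05, at 169, 68.3, 171 and 77.65 CPM in cKO and 56.2, 61.3 and 60.1 CPM in flox. All cKO embryos were above all flox embryos, 2 of them narrowly. Without flox replicate 1 the count in this list was 0. Among 13 tested genes of meiotic entry and retinoic acid, *Stra8*, the retinoic acid-induced gene that starts meiosis, had 0 counts in 3 cKO embryos and 13.1 CPM in the other, beside 138, 14.7 and 1.45 CPM in flox. Flox replicate 1 supplied most of these counts, and without it 0 of the 13 had an unadjusted p under 0.05. The number was also 0 without cKO replicate 1, 2 or 3.

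Genes that mark the later and the earlier states of the germ line were also described. For oocyte differentiation and growth, 20 genes were tested, 0 had an unadjusted p under 0.05 and the median log2 fold change was 0.06. *Figla*, a transcription factor of oocytes, was at 1122, 642, 1000 and 913 CPM in cKO and 1736, 842 and 1132 CPM in flox. *Uchl1*, a deubiquitinase abundant in germ cells, was at 455 to 759 CPM in cKO and 853 to 1155 CPM in flox, without overlap (log2 fold change −0.68, exact permutation p = 0.0571). For genes of primordial germ cells and pluripotency, the median was 0.56 over 11 tested genes, 8 of them above 0, but 0 had an unadjusted p under 0.05 and the median level was 9.45 CPM. *Dppa3* was the highest at 877, 118, 457 and 515 CPM in cKO and 443, 279 and 318 CPM in flox, so its range within cKO held all flox values.

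RNA-binding proteins, the piRNA pathway and chromatin modifiers gave 1 or 2 genes each. *Ythdf2*, a reader of methylated adenosine in RNA, was the 1 of 28 RNA-binding genes at an unadjusted p under 0.05, at 723, 527, 309 and 620 CPM in cKO and 332, 431 and 226 CPM in flox, while *Dazl* was at 999 to 1909 CPM in cKO and 934 to 1179 CPM in flox. This list had 2 such genes, both higher, without flox replicate 1. *Setdb1*, the histone H3 lysine methyltransferase that silences retroelements, stands in both the piRNA list (24 tested) and the list of DNA methylation and chromatin modifiers (35 tested). It was at 62.0, 94.5, 113 and 75.2 CPM in cKO and 34.2, 61.8 and 23.3 CPM in flox, so every cKO embryo was above every flox embryo, the closest pair by little (log2 fold change 1.12, SE 0.44, exact permutation p = 0.0286). *Trim28*, the corepressor that recruits SETDB1, lay the other way, at 223 to 366 CPM in cKO and 322 to 457 CPM in flox (−0.55, SE 0.26), and the groups overlapped. The piRNA list had 0 genes at an unadjusted p under 0.05 in edgeR's test once flox replicate 1 was left out.

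Checkpoint and cell death genes gave 1 gene each at an unadjusted p under 0.05. *Trp63*, whose product p63 removes oocytes with DNA damage, was at 67.5, 19.5, 79.7 and 66.9 CPM in cKO and 10.1, 15.99 and 35.9 CPM in flox (log2 fold change 1.499, SE 0.69), and 1 cKO embryo was within the flox range. In the same list of 26 tested p53 targets and damage checkpoint genes, *Mdm2* was at 236 to 362 CPM in cKO and 282 to 304 CPM in flox. *Mdm4*, a partner of MDM2, was at 265 to 392 CPM against 187 to 257 CPM, without overlap (exact permutation p = 0.0571). Among 21 apoptosis regulators, *Birc6*, a large inhibitor of apoptosis, was at 109, 173, 214 and 219 CPM in cKO and 273, 255 and 362 CPM in flox (−0.73, SE 0.29). The medians of these lists were 0.14 and −0.07. With flox replicate 1 left out they were 0.21 and −0.33, and 0 checkpoint genes had an unadjusted p under 0.05 in edgeR's test. The number of checkpoint genes was also 0 without cKO replicate 1 or 3, and it was 2 without cKO replicate 2.

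Many genes of RNA processing and protein synthesis had narrow intervals. Of 63 tested splicing factors, 40 (63.5%, beside 14.9% of all tested genes) had an interval within a 2-fold difference and 1, *Hnrnpu*, had an unadjusted p under 0.05 (0.0492), at 873 to 1569 CPM in cKO and 672 to 914 CPM in flox. Translation factors gave 3 of 46 (6.52%, beside 3.19% of all tested genes), the ribosome recycling factor *Abce1* and *Eif5a* higher and *Eif3k* lower. Of the 46, 27 had an interval within a 2-fold difference. Proteasome genes gave 1 of 41, the 19S subunit *Psmd13*, at 153 to 272 CPM in cKO and 219 to 636 CPM in flox, where flox replicate 1 was the highest. The medians of these lists were 0.04, 0.03 and 0.03. When flox replicate 1 was left out, 0 splicing factors, 3 translation factors (all higher) and 2 proteasome genes (both higher) had an unadjusted p under 0.05.

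Cytosolic ribosomal protein genes had 6 of 77 tested (7.79%, beside 3.19% of all tested genes) at an unadjusted p under 0.05, 1 higher (*Rps2*) and 5 lower (*Rps19*, *Rpl23a*, *Rps13*, *Rpl21* and *Rps15*), a median log2 fold change of −0.12, and 52 of 77 below 0. *Rps19*, of the small subunit, was at 458, 639.5, 448 and 432 CPM in cKO and 828, 990 and 904 CPM in flox, without overlap. *Rps13* was at 935, 1118, 1284 and 990 CPM against 2182, 1225 and 1748 CPM. Flox replicate 1 stood apart in this group of genes, with a summed level of 76857 CPM beside 45673 to 55433 CPM in the other 6 embryos. Without it the median was 0.10, and 7 genes were higher and 3 lower at an unadjusted p under 0.05, so the direction of the list rested on that library.

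The same library was the highest for nuclear-encoded oxidative phosphorylation, with a sum of 26227 CPM beside 16408 to 20466 CPM in the others. Of 81 tested subunits, all cKO embryos lay above all flox embryos for 2 and below for 6, beside 2.18% and 2.79% of all tested genes. An unadjusted p under 0.05 was found for 5 (6.17%, beside 3.19% of all tested genes), with a list median of −0.13. Of these 5, 1 (*Sdhc*, of complex II) was higher and 4 (*Ndufa2*, *Atp5k*, *Ndufa11* and *Uqcrh*) were lower. Without flox replicate 1 there were 4 higher and 1 lower, with a median of 0.02. *Atp5k*, a small subunit of ATP synthase, was at 617, 720, 777 and 822 CPM in cKO and 1360, 944 and 1079 CPM in flox, without overlap (exact permutation p = 0.0286). Mitochondrial ribosomal proteins gave 1 of 69, *Mrps24*, lower, with a median of −0.12 (−0.06 and 0 genes without flox replicate 1).

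Transcripts of the mitochondrial genome could be compared for part of its genes. Of 13 such genes, 7 were tested, and for all 7 the 95% interval stayed inside a 2-fold difference. Another 5 (*mt-Atp6*, *mt-Atp8*, *mt-Co3*, *mt-Nd3* and *mt-Nd4l*) had 0 counts in all 7 libraries, and why was not tested. *mt-Nd4*, the highest, was at 7444, 7079, 6758 and 8136 CPM in cKO and 5980, 10411 and 4463 CPM in flox. The sum ran from 20916 to 26597 CPM in cKO and from 15359 to 28460 CPM in flox, so the cKO embryos lay inside the flox range.

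**Figure D4:**
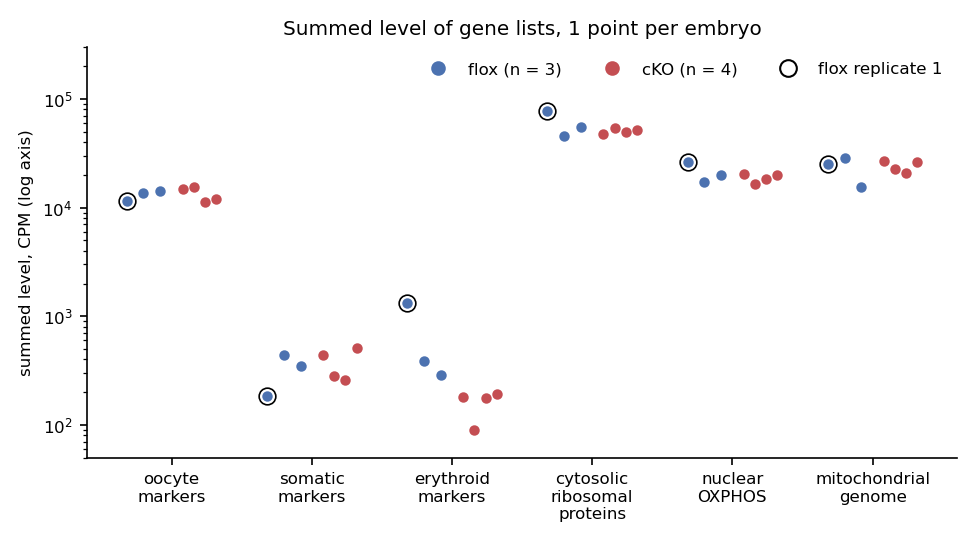
Summed level of 6 gene lists in CPM on a log axis, with 1 point per embryo, flox in blue and cKO in red, and flox replicate 1 ringed. The ringed embryo is the highest for erythroid markers, cytosolic ribosomal proteins and nuclear oxidative phosphorylation (OXPHOS), and among the 6 lists only the erythroid markers separate the groups.

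Metabolic and stress lists gave 0 to 2 genes each at an unadjusted p under 0.05 in edgeR's test. Glycolysis had the most, 2 of 14 tested (14.3%, beside 3.19% of all tested genes). All cKO embryos lay above all flox embryos for 1 glycolysis gene and below for 2. For the 28 genes of chaperonins, heat shock and unfolded protein response it was 1 above and 3 below. The other lists here had 1 above, an immediate early gene, and 0 below. Over all tested genes the shares were 2.18% above and 2.79% below. In glycolysis, 14 genes were tested. *Pkm*, pyruvate kinase, was higher in cKO (log2 fold change 0.76, SE 0.31, exact permutation p = 0.0571). It was at 255, 385, 437 and 292 CPM in cKO and 204, 189 and 214 CPM in flox. *Pgk1* had 0 counts in cKO and 11, 3 and 9 in flox, near the limit of detection (−6.14, SE 2.53). Its mean level was at least 3.17-fold lower in cKO against a floor of 3 counts per library. Flox replicate 2 itself was at that floor. Cholesterol synthesis (21 tested, median 0.14), chaperonins, heat shock and unfolded protein response (28 tested, median 0.06), interferon response (12 tested, median 0.24), estrogen-responsive genes (9 tested, median −0.03) and imprinted genes (17 tested, median 0.10) had 0 genes at an unadjusted p under 0.05 in edgeR's test. Leaving out flox replicate 1 gave medians of 0.45 for interferon response, 0.49 for estrogen-responsive genes and −0.24 for imprinted genes, the last pair with the opposite sign. The same omission gave 1 gene lower for cholesterol synthesis, 1 higher for the chaperonin list, and 1 higher and 2 lower for glycolysis at an unadjusted p under 0.05. *Hspa5*, the chaperone BiP, was at 1557 to 2317 CPM in cKO and 1593 to 2226 CPM in flox. Of 15 immediate early genes, *Egr2* was lower, with 1 count in 1 cKO embryo and 0, 16.9 and 14.5 CPM in flox. The tissue was dissociated before sorting, and the summed level of these genes overlapped between the groups, at 108 to 252 CPM in cKO and 173 to 316 CPM in flox.

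Genes near the Cre allele were taken as a list because cKO embryos carry the modified *Pou5f1* allele and flox embryos do not. Within 5 Mb of *Pou5f1* on chromosome 17, 109 genes were tested, 0 were higher and 3 lower at an unadjusted p under 0.05 (*Trim39*, *Tapbp* and *Olfr90*), and the median was −0.11. *Trim39*, a ubiquitin ligase, was at 5.19, 22.65, 14.3 and 68.0 CPM in cKO and 60.4, 105 and 81.5 CPM in flox, and *Olfr90* had counts in flox replicate 1 alone. Without flox replicate 1 there were 2 higher and 2 lower, and the median was 0.02.

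Over all 35 lists, 912 different genes were tested, 0 were called, and 38 (4.17%, beside 3.19% of all genes) had an unadjusted p under 0.05, 11 higher and 27 lower in cKO. In 15 of the lists there were 0 such genes.

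**Figure D5:**
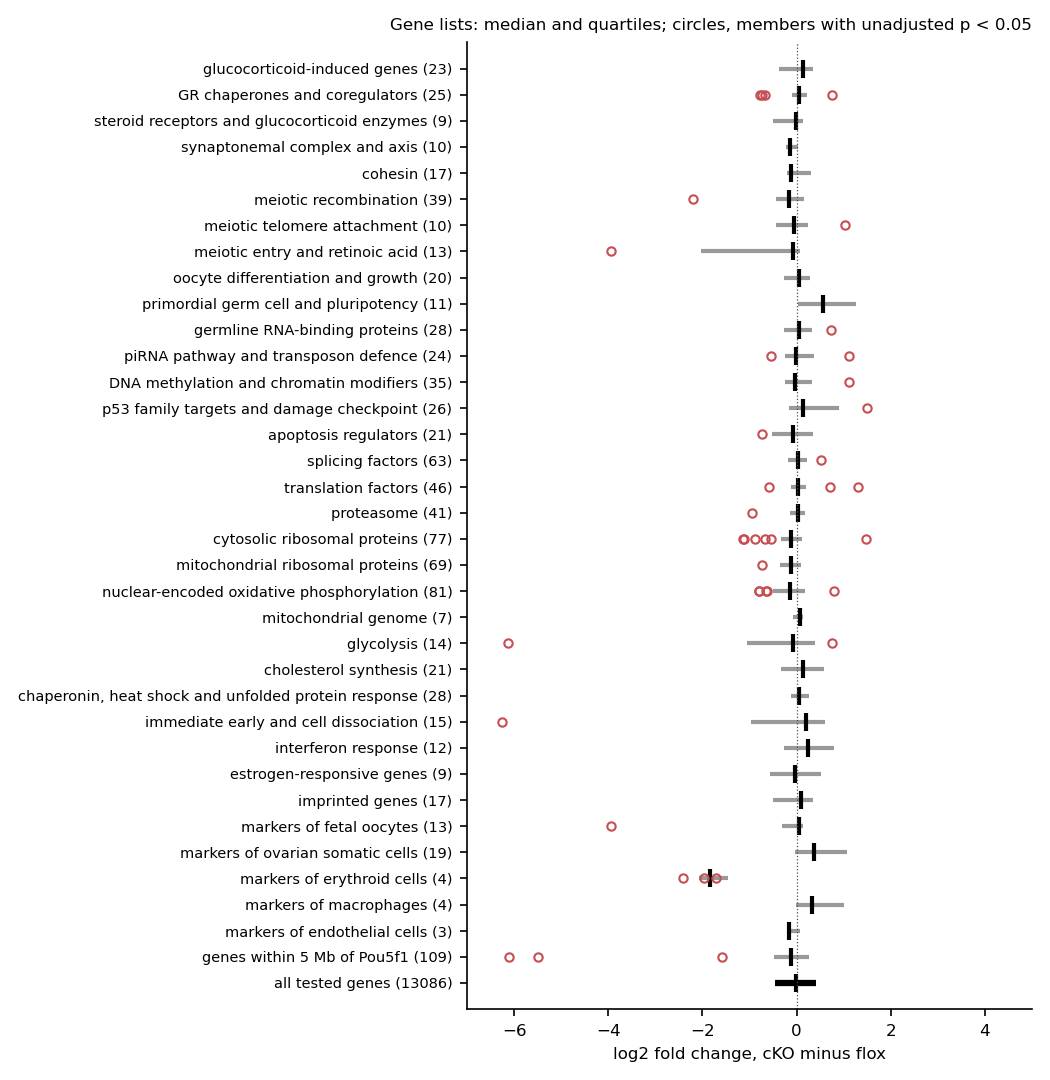
Median (black tick) and quartiles (grey bar) of the log2 fold change, cKO minus flox, for each list and for all tested genes, with the number of tested genes in brackets and red circles for members with an unadjusted p under 0.05. Medians lie between −0.16 and 0.56 except for the 4 erythroid genes at −1.83, and circles fall on both sides of 0.

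By annotated class, 336 of 11542 protein-coding genes (2.91%) had an unadjusted p under 0.05, with 152 higher and 184 lower and a median log2 fold change of 0.00. Long intergenic RNAs (lincRNA) gave 9 higher and 22 lower of 604, and antisense RNAs 4 higher and 12 lower of 299. Processed pseudogenes gave 0 higher and 7 lower of 133, with 98 below 0 and a median of −0.40. *Rpl31-ps8* was the highest of these 7, at 187, 344, 320 and 249 CPM in cKO and 465, 634.5 and 464 CPM in flox, without overlap. Several of the 7 are copies of ribosomal protein genes, whose reads cannot be assigned with certainty between the copies. Of 3632 tested genes with a library at 0 counts, 191 (5.26%) had an unadjusted p under 0.05, 63 higher and 128 lower. Zeros in the compared libraries define this class, and the filter used all 13 libraries. With the 7 libraries alone, 179 of all tested genes were higher and 157 lower, beside 173 and 245. Of 7406 with at least 10 counts in each of the 7 libraries, 195 (2.63%) did, 95 higher and 100 lower. On chromosome 18, which carries *Nr3c1*, 19 of 349 genes (5.44%) had an unadjusted p under 0.05, and the other autosomes and the X chromosome gave 1.56 to 4.19%.

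The constitutive cross gave a separate set of embryos that lack GR, with controls of their own. Of the 418 genes, 226 (54.1%) had a fold change of the same sign in KO against WT, beside 52.2% of all tested genes. An unadjusted p under 0.05 in both crosses was found for 30 genes with the same sign and for 18 with opposite signs. The share of all tested genes at this threshold in KO against WT was not counted, so whether 30 or 18 exceeds it cannot be said. Both contrasts use 1 estimate of the spread per gene, so their p-values are not independent. Several of the 30 had very large fold changes, such as *Bmp2* at −6.03 in the conditional and −6.71 in the constitutive cross. The ribosomal protein genes *Rps19*, *Rpl23a*, *Rpl21* and *Rps15* were among the 30, lower in both crosses. *Rpl23a* was at 31.2, 66.4, 98.8 and 80.1 CPM in cKO and 101, 180 and 167 CPM in flox (−1.11, SE 0.37), beside −2.11 for KO against WT, and 39.5% of its interval is shared with other genes. *Colgalt2*, a collagen galactosyltransferase, was at 44.0, 0.39, 46.6 and 44.2 CPM in cKO and 2.11, 4.00 and 0 CPM in flox, with 1 cKO embryo at the flox level (4.01, SE 1.32), and its fold change in the constitutive cross was 4.72. A direct test of the difference between the crosses called 0 of 13086 genes (0%) with edgeR, with 574 (4.39%) at an unadjusted p under 0.05. The crosses also differ in the tamoxifen described and in the tissues that lack GR.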

How the data were processed

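Each library was made from germ cells of 1 embryo (cKO, n = 4; flox, n = 3; KO and WT, n = 3 each) with a 3′ tag protocol on an Illumina sequencer. The authors aligned the reads to mm10 and deposited raw counts per gene, without normalization, and their processing notes name STAR 2.6.0 and featureCounts 1.6.3, with edgeR 3.28.1 and limma 3.42.2 for their own tests. Deposited tables of the authors' log2 fold changes and p-values for these comparisons were not used. The Length given for each of the 55335 genes equals its whole genomic span, so introns count towards a gene, and the strand setting of the counting and the annotation are not given in the sources used here. No molecular identifiers are described, so bounds on folds cover counting error only. Symbols came from GENCODE M21 (55154 genes matched, 181 without an entry).

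Libraries were assigned to groups from the labels. After edgeR's filterByExpr (at least 10 counts in the smallest group size, 15 in total), counts were normalized by TMM and tested with edgeR 4.0.16 in R 4.3.3, in 1 quasi-likelihood fit of all 13 libraries with a mean per group and no covariate, with Benjamini-Hochberg adjustment and a threshold of 0.05. Standard errors and 95% intervals come from this fit (prior degrees of freedom 15). Single genes were also tested by exact two-sided permutation of the 7 libraries on mean log2 CPM (prior count 2), where groups that do not overlap can still give a p above 0.0286 because another division has a larger difference of means. The code was tested on simulated counts. Alternatives used limma 3.58.1, DESeq2 1.42.0, other normalizations and filters, the replicate number as a block, and leaving out each library. Nothing in the labels says whether embryos shared a litter, so p-values measure the spread between these embryos.

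The groups, the 35 gene lists and the rules were chosen with earlier results of these data known. In each list the text names the 2 tested members with the lowest p and the 2 with the highest level, or some of these, beside the 8 genes with the lowest p in each direction and *Fkbp5*, *Sycp1*, *Smc1b*, *Prdm9* and *Dmc1*. Other members named at an unadjusted p under 0.05, at 0 counts or without overlap were singled out after their values were seen.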

Additional observations from a re-analysis of the deposited data

Results flagged for a closer look

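Lone values were looked for in 176 sets of 4 cKO values, those of the named genes and of the list sums, as a gap to the nearest value above 0.829 of the range. For independent values with a normal spread, chance gives about 1 in 20 such sets, and 16 were found. Some CPM values are tied at 0, the sets share genes, and many genes were chosen by a low p. The number found therefore cannot be set against that rate. The lone embryo was cKO replicate 2 for *Dclre1b* (57.0 CPM), *Colgalt2* (0.39 CPM), *Rps19* (639.5 CPM), *Rrp36* (0.78 CPM), *H6pd* (3.51 CPM), *Rarg* (0.39 CPM), the sum of meiotic recombination genes (4666 CPM) and the sum of erythroid markers (89.4 CPM). It was cKO replicate 4 for *Stra8* (13.1 CPM), *mt-Nd5* (1016 CPM), *Egr2* (0.35 CPM) and *Tapbp* (0.69 CPM). It was cKO replicate 1 for *Pgrmc2* (176 CPM), *Pdia6* (749 CPM) and the sum of splicing factors (20300 CPM), and cKO replicate 3 for *Hsp90ab1* (5115 CPM). For *Rarg*, *Egr2*, *Tapbp*, *Colgalt2*, *Stra8* and *H6pd* the lone value or the other cKO values were at 0 or 1 read.

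Of 141 named genes, 1 moved in opposite directions in the 2 crosses with every embryo. *Mrps16*, a protein of the mitochondrial ribosome, was at 43.3 to 86.7 CPM in cKO below 86.8 to 120 CPM in flox, and at 53.6 to 65.6 CPM in KO above 31.9 to 51.7 CPM in WT. The difference of the log2 fold changes was −1.09 (SE 0.57, unadjusted p = 0.07, adjusted p = 0.9999 in edgeR's test), so it did not pass the threshold.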

How the results depend on the processing

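The count of genes called was 0 with RLE and upper-quartile normalization, with at least 10 counts in every library, with the 7 libraries alone, with the replicate block, with limma's voom and without each library in turn (0 to 0). It was 11 without the filter on low counts (*Cwc22* and *Myt1l* higher, *Gm11942*, *Rpl26*, *Synj1*, *Hbb-bs*, *Hba-a1* and 4 genes with 6 libraries at 0 counts lower) and 5 with DESeq2, and the test of the difference between the crosses then called 8 and 4 genes, beside 0 to 0 without each library. Genes at an unadjusted p under 0.05 numbered 1067 without the filter, 223 with at least 10 counts in every library, 676 with DESeq2, 324 to 551 without each cKO or flox library and 504 to 562 without each KO or WT library. With the 7 libraries alone 179 were higher and 157 lower, a turn from 173 and 245. The replicate block gave 357. Deviations of same-numbered embryos correlated at 0.0636, 0.0398 and 0.00103, so no pairing by replicate number was seen. The authors' own code gives flox replicate 3 the number 4, and it correlated with cKO replicate 4 at 0.0241. These values do not test whether embryos shared a litter. The causes of the changes in these numbers of genes were not tested.

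For *Nr3c1* the log2 fold change ran from −0.52 to 0.19 without 1 cKO or flox library, and only without flox replicate 3 was it above 0. Of 1071 values of named genes under the other alternatives, 1042 kept their sign and side of the threshold, 5 passed it and 24 changed sign. These were *Pgrmc2* −0.013, *Fkbp6* −0.0063, *Hells* −0.026 and *Mdm2* −0.024 with upper-quartile normalization; *Pgrmc2* −0.065, *Rad50* 0.087, *Ythdc2* 0.16, *Eif5b* 0.094, *Irf3* 0.14, *Dlk1* −0.0020, *Flt1* 0.023, *Brd2* 0.069 and *Fkbp5* 0.0088 with the replicate block; *Ythdc2* 0.0065 and *Brd2* 0.016 without the filter; *Ythdc2* 0.003123 and *Brd2* 0.0093 with the 7 libraries alone; *Hells* −0.008864 and *Mdm2* −0.0048 with 10 counts in every library; *Hells* −0.030, *Mdm2* −0.007117 and *Irf3* 0.48 with voom; and *Brd2* 0.0056 with RLE and 0.007725 with DESeq2. Leaving out 1 cKO or flox library changed the sign in 84 of 982 values, over 44 genes. Their ranges were *Gm6682* −9.79 to 0.0, *Tsc22d3* −0.046 to 0.70, *Nfkbia* −0.071 to 0.58, *Hsp90aa1* −0.054 to 0.17, *Pgrmc2* −0.28 to 0.40, *Hormad1* −0.028 to 0.67, *Sycp1* −0.065 to 0.29, *Smc1b* −0.094 to 0.27, *Nipbl* −0.33 to 0.020, *Rad50* −0.26 to 0.20, *Brca2* −0.44 to 0.018, *Lmnb1* −0.62 to 0.44, *Rarg* −4.79 to 1.55, *Ythdc2* −0.28 to 0.20, *Fkbp6* −0.030 to 0.13, *Hells* −0.15 to 0.099, *Mdm2* −0.081 to 0.11, *Birc5* −0.32 to 0.031, *Eef2* −0.081 to 0.23, *Eif5b* −0.19 to 0.15, *Psma2* −0.27 to 0.81, *Psmd2* −0.15 to 0.065, *Mrpl52* −0.19 to 0.23, *Mrpl20* −0.66 to 0.25, *Cox6c* −0.49 to 0.0081, *mt-Nd5* −0.45 to 0.16, *mt-Nd4* −0.15 to 0.50, *mt-Nd1* −0.058 to 0.34, *Hmgcs1* −0.16 to 0.30, *Sqle* −0.36 to 0.32, *Hspa5* −0.18 to 0.062, *Btg2* −0.40 to 1.51, *H2-K1* −0.45 to 0.0069, *Irf3* −0.89 to 1.61, *Xbp1* −0.12 to 1.14, *H19* −0.92 to 0.23, *Col1a1* −0.46 to 0.23, *Tek* −0.78 to 0.23, *Flt1* −0.81 to 0.098, *Rps28* −0.34 to 0.14, *Brd2* −0.11 to 0.15, *Fkbp5* −0.23 to 0.26 and *Dmc1* −0.70 to 0.36. List medians moved by more than the spread between replicates in 5 of 276 values under other alternatives (glycolysis −0.68 and macrophage markers 2.00 with the replicate block, glycolysis −0.78 and estrogen-responsive genes −0.64 with voom, and interferon response −0.38 with 10 counts in every library, where 1 gene was left) and in 10 of 245 without 1 cKO or flox library.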
